A study of Nothobranchius furzeri with 10 samples.

Results

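A set of 63 genes was low in the brain library JG84 and in none of the other 9 libraries to the same degree. They were found among the 26739 genes of a count table from whole brains of the turquoise killifish Nothobranchius furzeri. The members were selected on their measured levels. These levels were expressed as CPM, a library's count of a gene scaled to a total of 1000000. A gene was taken when it had at least 1 count in each of the 10 libraries, a mean of at least 5 and under 1000 CPM, and a CPM in JG84 of at most 0.5 times the lowest CPM of the other 9. In JG81 and JG83 it also had to stay above 0.7 times its own median, which keeps out genes that were reduced in those libraries together with JG84. The count and level filters left 14350 genes, and the 63 members were 0.439% of them. The depth of the reduction in JG84 chose the genes, so it is given here as a description with no test.

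All 10 libraries were from male fish of the inbred GRZ strain, aged 10 weeks, and all carry the perturbation swim-tunnel, in which fish swim against a water flow. The labels hold no fish without exercise in this set, and no treatment, genotype or time distinguishes JG84 from the rest. Every library therefore belonged to 1 group, and the names JG74 to JG78 and JG80 to JG84 are those of the sample titles. Nothing in the labels says that each library came from a separate animal, so the spread between libraries may be technical.

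The turquoise killifish lives in seasonal ponds, matures and ages fast, and is a vertebrate model of ageing. GRZ is among its shortest-lived laboratory strains. The brain is a mixture of neurons, glia, cells lining the ventricles and vessel cells, and RNA from a whole brain averages over them. In such bulk samples fewer cells of a type and less RNA per cell cannot be told apart. The identifiers of the genes are not paired with names in the files, and 0 of 26739 matched the RefSeq gene table of the species, so neither the roles of the members nor the markers of brain cell types could be looked up. Members are numbered here from 1, the most reduced in JG84, to 63, the least.

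The overall measures of JG84 were close to those of the other libraries. Its total was 25410273 counts, within the range of 22958779 to 28223263 of all 10, and 3 counts were worth 0.118 CPM in it. It detected 21612 genes, the lowest number of the 10, with 21614 in JG83 and 21908 at most in JG76. Its 10 most abundant genes took 3.67% of the counts, between 3.45% and 3.97% over all libraries. Its slope on gene length was -0.03 per doubling of length, against -0.04 in JG81 and JG83 and 0.04 in JG77. Over the 14350 filtered genes, the JG84 level was a median of 1.03 times the median of the other 9 libraries. Against that same median, which includes the library itself, the other 9 were at 0.988 to 1.02 times. JG84 takes no part in that median, so its value is not ranked among theirs.

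The rule itself bounds the members' sum in JG84 at 0.5 times that of any other library. Taken as a sum, the members were far lower in JG84 than in any other library. Their summed level there was 990 CPM, and in the other 9 libraries it lay between 3893 CPM in JG76 and 4407 CPM in JG77, with a mean of 4117 ± 175 (SD, n = 9). JG84 thus held 0.240 times that mean, and the lowest of the 9 sums was 3893 CPM. The median member stood at 0.271 times its own median over the other 9 libraries, a 3.68-fold reduction. In each of those 9 libraries the median member lay between 0.963 and 1.09 times. Reductions ran from 0.00540 times in member 1 and 0.0212 times in member 2 to 0.459 times, and separate classes were not tested for. There were 10 members under 0.1 times, 15 from 0.1 to 0.2, 11 from 0.2 to 0.3, 17 from 0.3 to 0.4 and 10 above that.

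**Figure D1:**
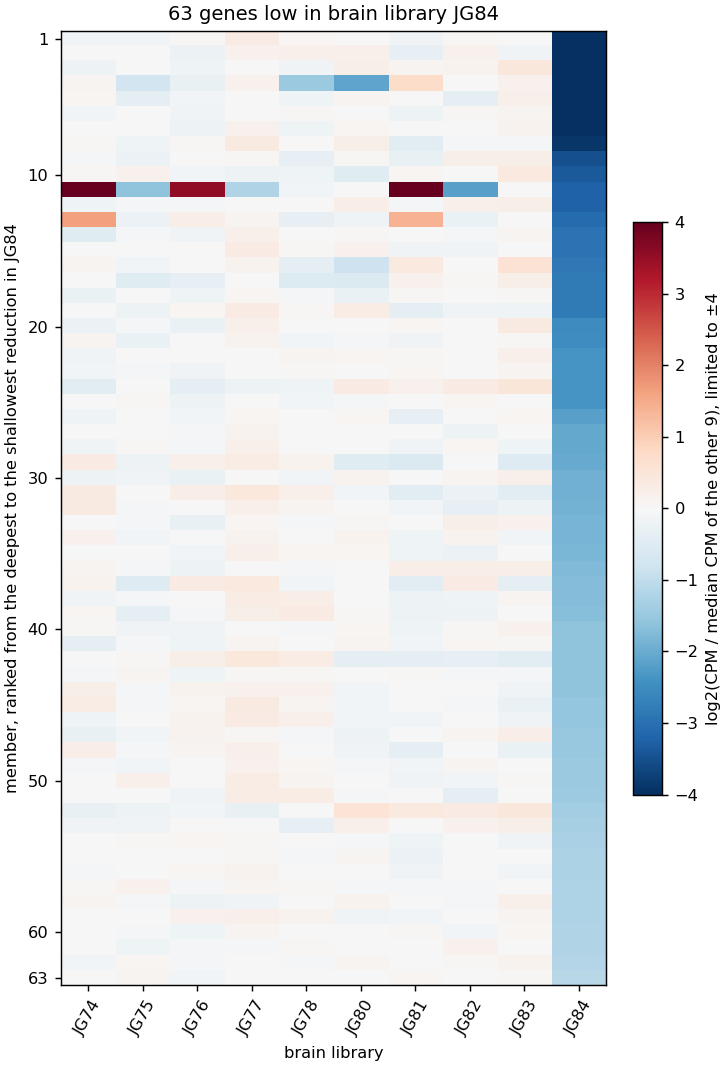
Levels of the 63 members (rows, ranked from the most to the least reduced in JG84) in the 10 brain libraries (columns), as log2 of CPM over the median CPM of the other 9 libraries, limited to ±4 in the colours. The JG84 column is blue in all 63 rows, while the other columns are near 0 except in a few rows such as 4, 11 and 13.

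The most reduced member was Nfu_g_1_008634 (member 1). It had 8 counts in JG84, where the other libraries held 1235 in JG74, 1306 in JG75, 1574 in JG76, 1680 in JG77, 1735 in JG78, 1647 in JG80, 1282 in JG81, 1629 in JG82 and 1383 in JG83. Scaled to the library total this was 0.315 CPM in JG84 and 59.1 ± 6.06 CPM in the others (SD, n = 9), where the rule excludes overlap. JG84 lay 185-fold below the median of the other 9. Its level was 0.00591 times that of JG81, the lowest of them, with an exact binomial 95% interval of 0.00255 to 0.0117 that covers counting error only. The gene was thus nearly silent in a library of common depth, and all 9 others held it at nearly the same level.

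The next was Nfu_g_1_006255 (member 2). It had 15 counts in JG84 and 640 in JG74, 672 in JG75, 615 in JG76, 718 in JG77, 890 in JG78, 896 in JG80, 530 in JG81, 849 in JG82 and 595 in JG83. The level was 0.590 CPM in JG84 and 27.98 ± 3.76 CPM in the others (SD, n = 9), 47.2-fold below their median. The other 9 differed by at most 1.44-fold from each other.

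Members 3 to 7 were between 17.4-fold and 29.6-fold below the median of the other 9. Member 3 was at 3.66 CPM in JG84, with a lowest level of 93.8, a median of 108 and a highest of 149 CPM over the other 9. Member 5 was at 0.433 CPM against a lowest of 8.77, a median of 11.5 and a highest of 13.1 CPM. Member 6 was at 5.90 CPM against 95.8, 110 and 117 CPM in the same order. For each of these 3 genes JG84 was far below a narrow band formed by the other libraries. Member 7 was at 1.26 CPM against 18.9, 21.9 and 24.5 CPM. In 6 of the 63 members the JG84 level was under 1 CPM, and in 3 it rested on fewer than 10 counts.

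**Figure D2:**
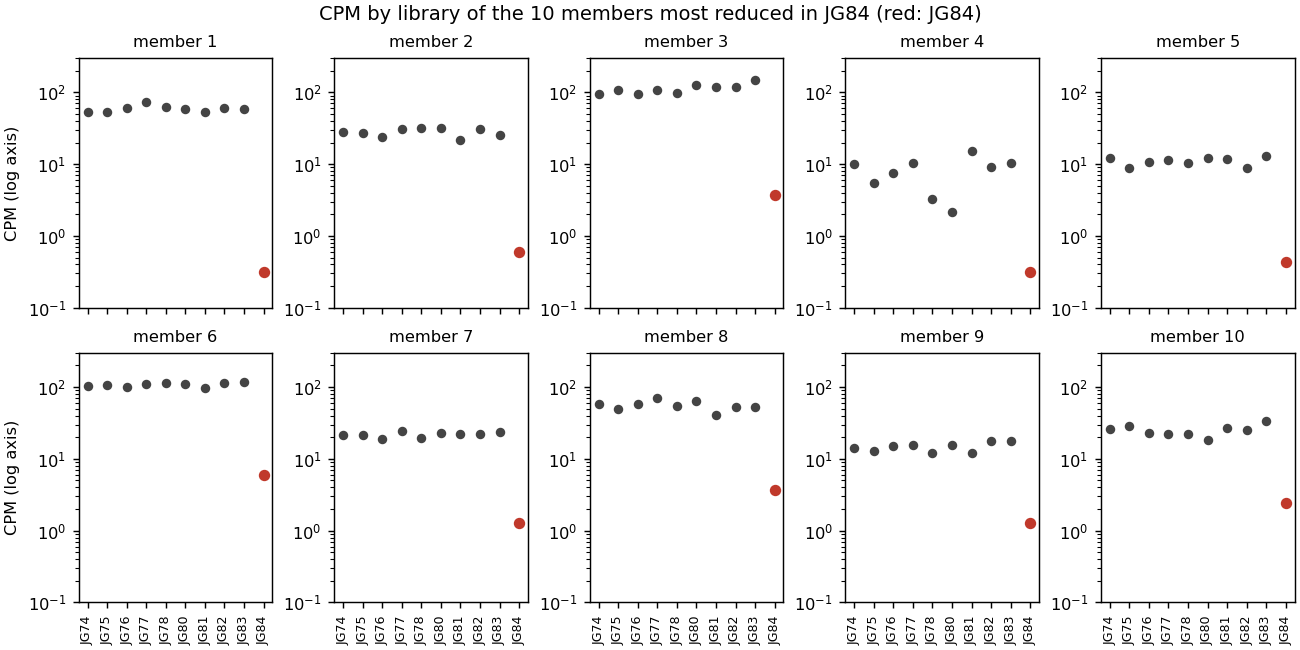
CPM on a log axis in each of the 10 libraries for the 10 members most reduced in JG84, with JG84 in red and the other 9 in grey. In 9 panels the grey points form a narrow band far above the red point, and in member 4 they spread from 2.13 to 15.1 CPM.

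Members with many counts were among the reduced genes too, so the reduction was not limited to genes near the counting floor. Member 15 had 1284 counts in JG84, or 50.5 CPM, against a lowest level of 348, a median of 388 and a highest of 483 CPM in the other 9. Member 23 was at 41.0 CPM in JG84 and at 208 ± 11.7 CPM in the others (SD, n = 9), a 5.11-fold reduction. Member 63, the least reduced against the median, had 2753 counts in JG84. Its level was 108 CPM there and 237 ± 9.70 CPM elsewhere (SD, n = 9), and a coefficient of variation (CV, the SD over the mean) of 4.09% in the other 9 was the lowest of any member. A fold of 2.18 was therefore still a gap of 19.1 SD of the log2 levels of the other libraries. JG84 counts of the members had a median of 200, from 4 to 2753, and 41 members had at least 100.

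Counting error can be given for each ratio, as a description, since the JG84 count, the lowest library and the limit of 0.5 all belong to the rule. The ratio of JG84 to the lowest other library had an exact binomial 95% interval wholly below 0.5 in 44 members, and the interval reached 0.5 or more in 19. The intervals do not allow for this selection. The lowest other library was JG81 in 15 members, JG76 in 11 and JG74 in 10, and JG77 in none. At the edge of the rule, the members closest to the limit had ratios to the lowest library of 0.491, 0.491 and 0.4998. The genes just outside it had 0.502, 0.503 and 0.507, and their ratios to the median of the other 9, 0.410 to 0.439, lay among those of members.

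Outside JG84 the members had a spread close to that of other brain genes. Their CV over the other 9 libraries had a median of 10.7%, against 10.9% over the 14350 filtered genes, and 32 of the 63 lay below that second value. The highest of the 9 libraries was a median of 1.39 times the lowest for members and 1.39 times for the filtered genes. It was under 1.5 times in 41 of the 63 members and in 64.6% of the filtered genes. It was over 2 times in 4 members, for which no share over the filtered genes was computed. The CV was under 20% in 52 members, or 82.5%, and this held for 82.9% of the filtered genes. On the log2 scale the gap between JG84 and the mean of the other 9 had a median of 13.3 times their SD. It was over 5 SD in 57 members and over 10 SD in 41. The JG84 level and the lowest of the other 9 both entered the rule, so these gaps are a description. The CVs and the values of highest over lowest rest on the same 9 libraries. The rule used their lowest level and the levels in JG81 and JG83, so these are descriptions too. Among the 52 members of CV under 20%, a limit chosen after the data had been seen, the median ratio in JG84 was 0.281 times, against 0.271 times in all 63.

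**Figure D3:**
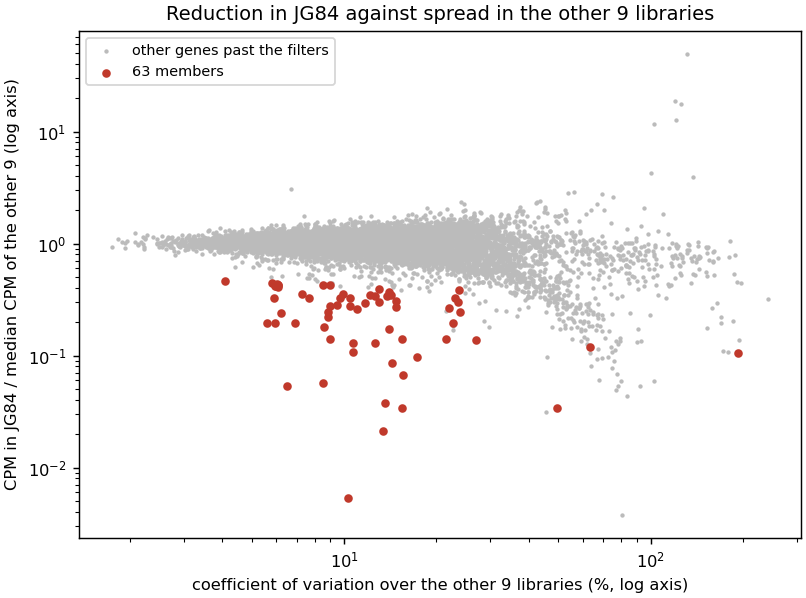
Level in JG84 relative to the median of the other 9 libraries (log axis) against the coefficient of variation over those 9 (%, log axis) for 14350 filtered genes, with the 63 members in red. Most members lie at a CV under 20% and below the grey band of other genes, while most other genes of similar reduction lie at a higher CV. This contrast is bound to the rule, which lets a variable gene in only when it is deeply reduced.

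In a test of spread that leaves JG84 out, the share of members called was near that of all genes. The edgeR deviance test, fitted to all genes in the other 9 libraries, called 1124 of 17962 genes more variable than genes of their abundance (6.26%, Benjamini-Hochberg adjusted p under 0.05). It called 3 of the 63 members. With genes of at least 5 mean CPM, nearer to the level asked of members, it called 4 of the 63 members and 807 of 14419 genes. The rule had used the lowest of the 9 libraries and the levels in JG81 and JG83, so these counts are descriptions. The biological CV estimated by edgeR, the spread beyond counting error, had a median of 0.137 in members and of 0.151 in all genes tested. The genes tested included many below the 5 CPM asked of members. With genes of at least 5 mean CPM the medians were 0.136 in members and 0.133 in all genes tested. DESeq2 marked 1 member as a dispersion outlier, where it marked 1.93% of all genes. With JG84 included, as the rule would have it, edgeR called 40 members beside 6.76% of all genes, from which nothing is read.

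The 3 members called without JG84 among the 17962 genes were members 4, 11 and 13. They had the highest CVs over the other 9 libraries, 49.6%, 193% and 63.3% in that order. A further 8 members had a CV of 20% to 40%, so not all of the rest formed a narrow band. Of these 8, members 29, 31, 37 and 42 were below their median over the other 9 in both JG81 and JG83. Member 29 was at 37.7 and 39.0 CPM there against 55.7 CPM, and member 31 at 27.6 and 27.6 against 37.1. Member 37 was at 153 and 160 against 208 CPM, and member 42 at 20.2 and 19.5 against 26.6. They stayed above the limit of 0.7 in the rule. Members 16, 17, 24 and 52 were above their median in both libraries. Member 11 goes against the label of a gene low in JG84 alone. Its counts were 5408 in JG74, 3178 in JG81 and 451 in JG76, then 42 in JG80, 39 in JG78, 36 in JG83, 15 in JG77, 12 in JG75, 9 in JG82 and 4 in JG84. The gene was high in 3 libraries and at 42 counts or fewer in 7, of which JG84 was the lowest. Its gap in JG84 was 1.20 SD, and its ratio to JG82 of 0.477 had an interval of 0.107 to 1.71. Member 4 was at 0.315 CPM in JG84 and between 2.13 CPM in JG80 and 15.1 CPM in JG81 in the others. Member 13 was at 1.26 CPM in JG84, with 33.4 CPM at most in JG74 and 27.8 CPM in JG81, and between 8.54 and 12.7 CPM in the other 7. Members 11 and 13 thus had their highest levels in the same libraries, JG74 and JG81. In 60 of the 63 members no other library was below 0.7 times the gene's median over all 10, the exceptions being members 4, 11 and 16. This count is bound to the rule, which kept JG81 and JG83 above that limit. No share over all filtered genes was computed, and nothing is read from it.

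The members' levels were on average weakly correlated with each other in the other libraries. Over the other 9, the mean pairwise Pearson correlation of log2 CPM was 0.111 across 1953 pairs of members, against 0.0212 across all pairs of filtered genes. Without JG77 the members' value was 0.0425. Single pairs ranged from -0.931 to 0.968, and 60.7% of them were above 0. No share above 0 was computed over pairs of filtered genes, so nothing is read from it. With JG84 included the mean was 0.903, which restates the rule. These points share libraries and depth, and the values carry no test. The libraries JG74 to JG78 lay wholly above JG80 to JG83 in 2 members (7.36% of filtered genes) and wholly below in 4 members (18.1% of filtered genes).

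A further 10 genes met the limit in JG84 but were left out because JG81 or JG83 was reduced too. Their medians were 0.647 times the gene median in JG81, 0.689 times in JG83 and 0.191 times in JG84. The members' medians in the same libraries were 0.985 and 1.05 times in JG81 and JG83. The 10 had a median CV of 29.2% over the other 9 and a mean pairwise correlation of 0.552 there. Both values are bound to the rule, since JG81 and JG83 were used to separate the lists, and nothing is read from them.

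No other library had as many genes to itself. Without the condition on JG81 and JG83, JG84 was at most 0.5 times the lowest of the others in 73 of 14350 genes (0.509%). The same count was 18 in JG82 (0.125%), 6 in JG81 (0.0418%), 4 in JG74 (0.0279%), 2 each in JG76 (0.0139%), JG77 (0.0139%) and JG80 (0.0139%), and 0 in JG75, JG78 and JG83. These counts describe libraries and are not a test of JG84. The lists of JG82 and JG84 differed in spread: the median CV over the remaining libraries was 94.6% in the genes of JG82 and 12.6% in those of JG84. In 52 of the 73 genes of JG84 the other libraries had a CV under 20%, and the lists of the other 9 libraries together held 1 such gene among 34. Without JG84, a CV under 20% held for 82.9% of all filtered genes, so it is no special trait of its list. The lowest of the remaining libraries entered the choice of each list, so these CVs are descriptions.

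Genes that stood apart in JG84 were nearly all low. Only 1 gene of the 14350 (0.00697%) was at least 2 times as high in JG84 as in the highest other library. It was Nfu_g_1_020398, at 304 CPM in JG84 and at 97.7 ± 6.53 CPM in the others (SD, n = 9), 3.07 times their median. Their lowest level was 85.4 CPM in JG83 and their highest 105 CPM in JG74. JG74 had 24 genes high alone and JG81 had 7. Over all filtered genes, JG84 was at most 0.5 times the median of the other 9 in 408 (2.84%), and 125 of these kept JG81 and JG83 above 0.7 times the gene median. Among the 11897 filtered genes with a CV under 20% over the other 9 libraries, JG84 was at most 0.5 times their median in 82 (0.689%) and at least 2 times in 2. Of those 82 genes, 52 were members. The middle 95% of the 11897 genes lay between 0.708 and 1.35 times in JG84. The filter of at least 1 count kept out 2 genes within the CPM limits that had 0 counts in JG84. Their counts in the other 9 libraries ran from 11 to 671 and from 1 to 3356.

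**Figure D4:**
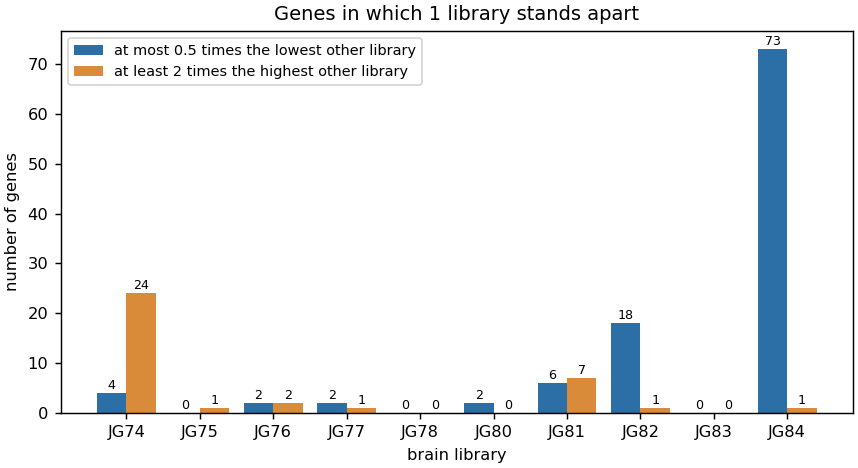
Number of filtered genes in which a library was at most 0.5 times the lowest other library (blue) or at least 2 times the highest other library (orange), by library. JG84 has 73 genes low alone and 1 high alone, and JG74 has 24 high alone.

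In length and in level per length the members had medians close to those of other filtered genes. Gene lengths were recovered from the deposited counts and RPKM (counts scaled by gene length and library total). They were known for all 63, with a median of 3079 bp and a range from 331 bp in member 54 to 16152 bp in member 19. The median over the filtered genes was 3049 bp. There were 17 members below the lower quartile of the filtered genes, 1578 bp, and 12 above the upper, 5177 bp. The level per length over the other 9 libraries, recalculated as RPKM from each library's own total, had a median of 11.2 in members and 11.4 in filtered genes. The highest members by this measure were member 33 at 182 RPKM, member 3 at 182, member 12 at 169 and member 24 at 167, and the lowest was member 46 at 1.405. In JG84 the members' median RPKM was 2.72. Across the 63 members the ratio in JG84 had a Spearman correlation of 0.0462 with length, 0.00456 with the median CPM of the other 9 and -0.421 with their CV. Members are not independent replicates, and the last value is bound to the rule, which lets a variable gene in only when it is deeply reduced.

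Most members stood alone in the row order of the table, and 5 pairs held neighbouring rows. The files give no chromosome positions and do not say how rows were ordered, so closeness in the table is not known to be closeness in the genome. The pairs were members 3 and 13 in rows 2664 and 2665, members 34 and 60 in rows 11338 and 11339, members 22 and 23 in rows 15285 and 15286, members 56 and 54 in rows 21444 and 21445, and members 63 and 43 in rows 21789 and 21790. No run of consecutive rows was longer than 2. With rows at most 10 apart the runs held 11 members and the longest held 3. That run was member 21 in row 11334 with members 34 and 60, and filtered rows between them were at 0.884 and 1.21 times in JG84. Member 38 lay further off in row 11313. Over the other 9 libraries the log2 levels of the paired members had correlations of -0.306, -0.000636, 0.764, 0.843 and 0.668 in that order.

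In some pairs the reduction was of the same size. Members 22 and 23 were at 0.195 and 0.196 times their medians in JG84, although their levels in the others were 23.5 ± 1.62 and 208 ± 11.7 CPM (SD, n = 9). Members 56 and 54 were at 0.418 and 0.410 times, and the row before them was at 0.437 times, from 10.9 CPM. A filtered gene 3 rows before member 56 was at 0.492 times. In other pairs it was not: members 3 and 13 were at 0.0338 and 0.119 times, and members 34 and 60 at 0.278 and 0.431 times. Whether members that share rows also share reads through overlapping gene models cannot be traced in the files.

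Around member 29, in row 11445, both adjoining rows were low in JG84 without meeting the rule. The row before was at 8.89 CPM in JG84 and at 35.2 ± 11.9 CPM in the others, 0.248 times their median. Its lowest other library was JG80 at 17.5 CPM, so its ratio to the lowest was 0.507, and with JG83 at 23.4 CPM it missed the condition on that library too. The row after was at 17.8 CPM in JG84 and at 35.8 ± 4.50 CPM in the others, 0.490 times their median. Member 29 itself was at 13.7 CPM against a lowest of 37.7, a median of 55.7 and a highest of 69.7 CPM. All 3 rows had JG84 as their lowest library.

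Rows next to members that were not members themselves were mostly near their usual level in JG84, and low stretches were not counted. Of 65 filtered genes that adjoined a member and were not members, 6 (9.23%) were below 0.7 times the median of the other 9, where 7.02% of all filtered genes were. Their median was 0.986 times. The 10 members in the 5 pairs are left out of this share, and members were 0.439% of all filtered genes. Whether members gather in neighbouring rows was not tested. At 2 to 5 rows from a member the medians of non-members were between 1.005 and 1.03 times, with 8.22% to 13.1% below 0.7 times. Each of these shares, like that at 1 row, was above the 7.02% of all filtered genes, and the difference was not tested. The lowest of the 6 neighbours, at 0.137 times, was the row before member 11. It too was high in JG74 at 39.6 CPM and in JG81 at 19.6 CPM, and at 3.17 CPM or less in the others.

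**Figure D5:**
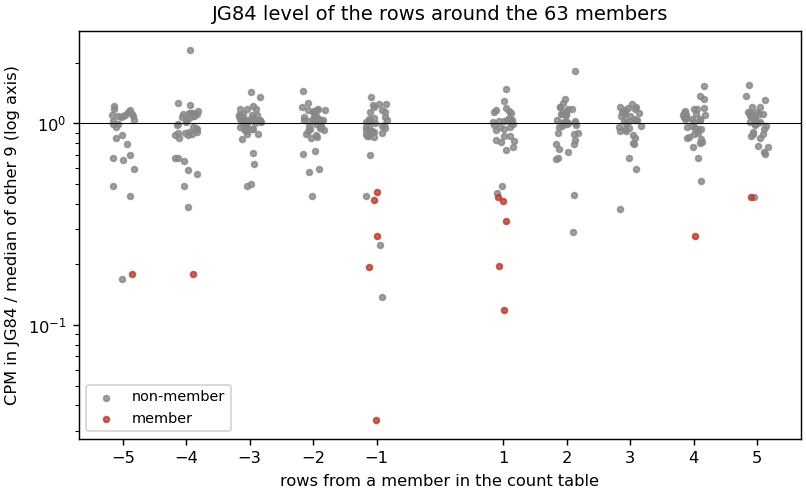
Level in JG84 relative to the median of the other 9 libraries (log axis) for filtered genes up to 5 rows before or after a member in the count table, with members in red and other genes in grey, and a line at 1. A gene near more than 1 member appears more than once. Most grey points lie close to 1 at every distance, and at 1 row the non-members have a median of 0.986.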

How the data were processed

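The authors deposited raw counts per gene and RPKM for 10 brain libraries which, per the labels' protocols, were prepared with a TruSeq kit for RNA. Tools listed in the submitters' processing notes are featureCounts (1.4.6-p4), STAR (2.4.1d) and bcl2fastq (1.8.4). Build, annotation, counting options and strand use are not given in the sources. The deposited RPKM did not follow from each column's own total, which left a median CV of 11.0% in implied length over 9214 genes. With the 10 totals taken in turn from row to row it was 0.00158%, so RPKM served only to recover gene lengths.

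CPM used column totals. Log2 CPM used a prior count of 2. Spread over the 9 libraries other than JG84 was tested with edgeR 4.0.16 in R 4.3.3 on genes of at least 1 mean CPM (TMM scaling, intercept only, trended dispersion, deviance against chi-square with 8 degrees of freedom), after tests on simulated data. DESeq2 1.42.0 was an alternative. Other steps used Python 3.11.15 and scipy 1.17.1. The members and lists were chosen with earlier results of these data known. By rule, the 2 members of lowest ratio in JG84 to the median of the other 9 and at most 2 genes high in JG84 alone are named by identifier, since 0 of 26739 identifiers matched the 38438 RefSeq genes (assembly NfurGRZ-RIMD1). The marker list of brain cell types that had been written down could not be evaluated for the same reason, and no sequence is shown. Intervals and floors cover counting error only. Alternatives covered scaling, thresholds, filters, the tool and each library left out.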

Additional observations from a re-analysis of the deposited data

Results flagged for a closer look

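Of 11 measures of the libraries, 7 had 1 library far from the other 9. Its gap to the next library, divided by the range of all 10, exceeded Dixon's critical value for 10 samples. Chance gives about 1 in 20 for normally distributed measures that were not chosen on these data. Most of these were: the summed level of the members (990 CPM in JG84), their median relative level (0.271 in JG84) and the levels of Nfu_g_1_008634 (0.315 CPM in JG84) and Nfu_g_1_006255 (0.590 CPM in JG84) restate the rule. The level of Nfu_g_1_020398 (304 CPM in JG84) restates the mirrored rule. The number of genes low alone, 73 in JG84, restates it as well, since these are the 63 members and the 10 genes left out for JG81 or JG83. The number of genes high alone was 24 in JG74, with a gap of 0.708 times the range. It is a skewed count, with 7 in JG81 and at most 2 elsewhere, so the rate of 1 in 20 need not hold for it. No library was this far apart in total counts, in genes detected, in slope on length or in the share held by its 10 leading genes.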

How the results depend on the processing

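The 63 members became 125 when JG84 was compared with the median of the other 9 in place of the lowest, and 96 with a mean of at least 1 CPM, and both lists held all 63. With that filter the 73 genes low alone in JG84 became 115. By construction these settings admit more genes. The other settings gave 43 to 89 members, 64 to 69 without each other library in turn, and at least 62 of the 63 were found again in each of the latter. The members' median ratio in JG84 lay between 0.264 and 0.277 without each library in turn. The members called in the test of spread were 2 to 4 without each library in turn, and DESeq2 dispersion outliers gave 1 in place of 3, and 347 in place of 1124 genes. The cause was not tested. The mean correlation of members ran from 0.0425 (without JG77) to 0.132 without each library in turn. The ratio of Nfu_g_1_020398 was 2.99 with TMM scaling and 2.98 with DESeq2 size factors. The ratios in JG84 of the genes named by identifier kept their direction in every setting. The order of the median biological CVs did not. Members were below all genes tested in the main setting and above them with genes of at least 5 mean CPM (0.136 and 0.133). Counts of genes apart in other libraries were small and moved by more than 1.5 times in many settings. The limit to members of CV under 20% was added after the data had been seen, as was the fit with all 10 libraries. No paired analysis was possible because all libraries form 1 group. The rule for members cannot be applied without JG84.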
